A study of Mus musculus with 36 samples.

Results

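A group of imprinted genes of growth control, H19, Igf2, Meg3, Dlk1, Cdkn1c, Grb10 and Peg3, was followed through salivary glands of a mouse tumor model. They are 7 of the 31102 genes in the single-cell tables and were chosen by name. They were selected on their measured differences between genotypes, stages and cell types in the same Drop-seq glands and on their levels in the bulk libraries, without a numeric limit. Their values in those data are therefore given as a description, with no test. Tests of the members are given only in 4 further glands measured by CITE-seq and for sex. Genes of other lists are also tested between genotypes and stages in Drop-seq. Those lists too were chosen with earlier results of these data known.

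In the Drop-seq experiment, which counts transcripts of single cells by unique molecular identifiers (UMIs), each genotype was taken at postnatal day 40 (P40) and at P90, with 6 glands per age for control mice, 7 per age for double mutants, and both sexes in each group. CITE-seq, which reads RNA and surface proteins of the same cells, was done at P70 on 2 control and 2 double-mutant glands, and bulk RNA-seq on 1 submandibular gland of each genotype, the control aged P70 and the double mutant P100. Control mice, wildtype in the labels, carried K14-Cre and a Cre-dependent EYFP reporter, and double mutants carried in addition a gain-of-function allele of β-catenin and a loss-of-function allele of Bmpr1a, both switched on by the same Cre. K14 is a keratin of basal epithelium, so this Cre acts in K14-expressing epithelium and the cells that descend from it. All mice were C57BL/6, and each library came from 1 mouse.

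At an imprinted locus a gene is transcribed from the maternal or the paternal copy only, according to DNA methylation set in the germ line. Many such genes regulate fetal growth and are turned down after birth, and several are expressed again in tumors. Igf2, a growth factor read from the paternal copy, and H19, a long non-coding RNA read from the maternal copy, are neighbors that share enhancers. Dlk1, a membrane protein related to Notch ligands, and Meg3, a long non-coding RNA, form another such pair. Cdkn1c inhibits cyclin-dependent kinases, Grb10 is an adaptor that restrains insulin and IGF receptor signaling, and Peg3 is a zinc finger protein. UMI counts do not separate the parental copies, so nothing here measures imprinting itself.

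On mm10, H19 lies at chr7:142575529-142578143 and Igf2 at chr7:142650766-142666816, both on the minus strand. Cdkn1c (chr7:143458350-143461050) and Peg3 (chr7:6703892-6730421) are on the minus strand of the same chromosome. Dlk1 (chr12:109452823-109463336) and Meg3 (chr12:109541001-109571726) are on the plus strand of chromosome 12, and Grb10 (chr11:11930508-12038683) is on the minus strand of chromosome 11. H19 and Meg3 are annotated as long intergenic non-coding RNAs and the other members as protein-coding.

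H19, Igf2 and Meg3 are also hosts of microRNAs, and their mature forms are shown because they are further products of the loci on which the results below turn. Capitals mark the seed, bases 2 to 8, and no 2 of the 7 annotated mature forms share a seed. The libraries were made from poly(A) RNA of the host genes and did not measure the mature forms. The sequences are from RefSeq (GRCm38.p6, the build also called mm10). The 2 forms from H19 are at chr7:142577078-142577099 and chr7:142577112-142577133, the 2 from Igf2 at chr7:142654932-142654952 and chr7:142654968-142654989, and those shown from Meg3 at chr12:109563710-109563731 and chr12:109563744-109563765.
mmu-miR-675-3p (H19): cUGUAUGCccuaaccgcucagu
mmu-miR-675-5p (H19): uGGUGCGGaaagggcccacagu
mmu-miR-483-3p (Igf2): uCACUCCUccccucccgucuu
mmu-miR-483-5p (Igf2): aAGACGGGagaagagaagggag
mmu-miR-770-5p (Meg3): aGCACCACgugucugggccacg
mmu-miR-770-3p (Meg3): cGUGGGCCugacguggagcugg

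The double-mutant mice carry activated β-catenin, which acts with TCF/LEF factors, and the core CTTTGA of the TCF/LEF motif was searched on both strands in RefSeq promoter windows, 250 bases before to 50 bases after each start. It was present in 2 of 10 windows of the 5 members that had one, against 16.0% of all 32851 windows. H19 and Cdkn1c had no window. The matches were in the most upstream window of Igf2 (chr7:142666817-142667066, minus strand), 207 bases before the start, and in the first window of Meg3 (chr12:109540746-109540995, plus strand), 52 bases before the start. The bases before each start follow, 5′ to 3′ on the gene's strand, with the match, read as TCAAAG, in capitals. A match is a description of the letters and not a shown binding site.
Igf2: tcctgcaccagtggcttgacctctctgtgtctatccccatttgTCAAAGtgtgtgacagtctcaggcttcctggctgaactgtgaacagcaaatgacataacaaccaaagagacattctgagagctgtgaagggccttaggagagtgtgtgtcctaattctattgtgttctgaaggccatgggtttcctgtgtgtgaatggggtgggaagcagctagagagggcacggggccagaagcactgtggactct
Meg3: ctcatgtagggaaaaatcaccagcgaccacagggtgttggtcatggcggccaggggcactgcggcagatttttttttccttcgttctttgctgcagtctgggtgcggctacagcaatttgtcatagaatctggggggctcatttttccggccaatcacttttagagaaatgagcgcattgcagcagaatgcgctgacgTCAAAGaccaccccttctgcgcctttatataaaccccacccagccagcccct

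After cells with fewer than 100 genes or at least 15% mitochondrial UMIs were left out, 23346 Drop-seq cells (606 to 1209 per gland, 650301 to 6994504 UMIs per gland) and 2535 CITE-seq cells (497 to 728 per gland, 670322 to 2205865 UMIs) remained. Median depth per Drop-seq cell was 2062 UMIs for controls and 1151 UMIs for double mutants. Of 23332 distinct barcodes, 14 occurred in more than 1 Drop-seq library, and of 2533, 2 occurred in more than 1 CITE-seq library. Bmpr1a, at a median of 16.7 CPM (the per-million share of a gene in the UMIs) in control and 22 CPM in double-mutant glands, and Ctnnb1, at 41.7 and 109 CPM, passed the test in neither assay, and 3' tags need not lie in the floxed exons, so this does not check the alleles. The libraries labelled double-mutant P40 replicate 1, male, and P90 replicate 5, female, carried sex transcripts against their labels (591 Xist UMIs and 1 UMI of Y-linked genes in the former, 0 and 194 in the latter). An exchange of the pair would also exchange their stages. The stage values of H19 and Igf2, the sex fit and some counts of called genes are therefore also given without both. Other results, among them the levels by stage in luminal Clu+-like cells, include both as labelled. P90 replicate 4 was kept out of sub-clustering by the study. P40 replicate 3 and P90 replicate 7 of the double mutants held at most 1 cell of the 3 tumor-like populations described below.

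H19 was close to absent from control glands and present in 12 of 14 double-mutant glands. In control glands, 8 H19 UMIs were found in all, with 0 to 1.72 CPM (median 0.233) at P40 and none in any of the 6 glands at P90. In double-mutant glands, H19 ranged from 0 to 117 CPM (median 9.46) at P40 and from 0 to 123 CPM (median 12.3) at P90. The highest glands were P40 replicate 6 (117 CPM, 449 UMIs), P40 replicate 5 (90.7 CPM) and P90 replicate 4 (123 CPM). The 2 glands without any H19 UMI were those with almost no tumor-like cells, P40 replicate 3 and P90 replicate 7. Of the 14 double-mutant glands, 11 were above every control, and pooled over glands H19 was at 26.5 CPM against 0.201 CPM, a 132-fold difference.

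Igf2 had a similar range over the glands, at higher counts. Control glands held 15 UMIs, with at most 1.72 CPM. Double-mutant glands ranged from 0.154 to 228 CPM (median 13.5) at P40 and from 0 to 304 CPM (median 25.7) at P90. P90 replicate 4 (304 CPM) and P40 replicate 5 (228 CPM) were highest, and the lowest were again P90 replicate 7 (0) and P40 replicate 3 (0.154 CPM). Again 11 of 14 double-mutant glands were above every control, and the pooled difference was 99.2-fold (1197 UMIs against 15). Both genes had too few counts in control glands to pass the filter of the fit described next.

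Meg3, unlike H19 and Igf2, was present in every control gland. Controls ranged from 1.11 to 12.9 CPM (median 4.95) at P40 and from 0.575 to 5.36 CPM (median 2.02) at P90. Double-mutant glands ranged from 12 to 115 CPM (median 26.1) at P40 and from 1.121 to 121 CPM (median 31.9) at P90. Only P40 replicate 3 and P90 replicates 1 and 7 did not exceed the highest control. Its neighbor Dlk1 was rare, with 1 UMI in all control glands and 46 UMIs in 9 of 14 double-mutant glands, at most 19.9 CPM, in P90 replicate 4.

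Peg3 ranged from 0 to 14.6 CPM in control glands, with medians of 2.79 at P40 and 2.87 at P90. In double-mutant glands its medians were 19.1 CPM at P40 (4.45 to 71.6) and 20.5 CPM at P90 (1.27 to 33.7), and 9 of 14 were above every control. Cdkn1c, at 1.11 to 9.30 CPM in control glands, reached 33.6 CPM in P40 replicate 2 and 36.1 CPM in P90 replicate 4, with medians of 9.23 and 10.9 CPM in double mutants. For Cdkn1c the groups overlapped widely, with 8 of 14 glands above every control. Grb10 overlapped most, from 0 to 6.88 CPM in controls and from 2.49 to 17.3 CPM in double mutants, with 6 of 14 above every control.

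**Figure D1:**
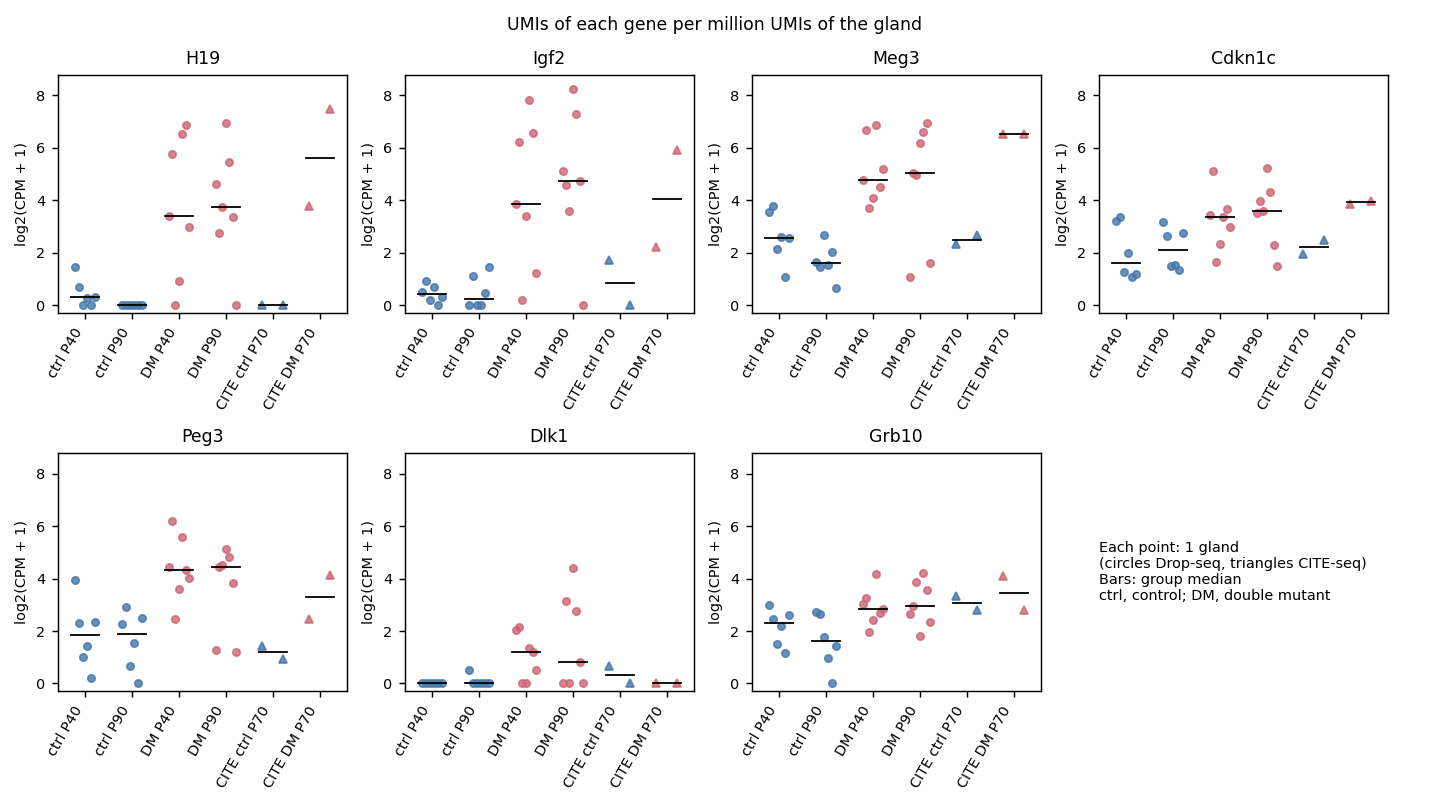
Level of each gene per gland as log2(CPM + 1), with 1 point for each gland, circles for Drop-seq and triangles for CITE-seq, by genotype (ctrl, control; DM, double mutant) and age; bars are group medians. H19 and Igf2 sat near 0 in all controls and spread from 0 to above 100 CPM among double mutants, whereas the Grb10 groups overlapped.

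In the fit of the genotype over 26 glands (edgeR's quasi-likelihood test with sex and stage as covariates), 21.6% of 8768 genes passed the threshold of 0.05 on the adjusted p, 14% with higher and 7.64% with lower levels in double mutants. This contrast chose the members, so nothing is read from that share and their values carry no p. The log2 fold change (double mutant minus control, ± SE) was 2.65 ± 0.49 for Meg3, 2.03 ± 0.44 for Peg3, 0.92 ± 0.36 for Cdkn1c and 0.62 ± 0.29 for Grb10. Without the filter on low counts it was 6.24 ± 0.55 for H19, 6.13 ± 0.50 for Igf2 and 4.29 ± 0.79 for Dlk1, values that depend on the prior count because controls were near 0. With the sequencing batch as a factor the first 4 values were 2.67, 2.28, 0.96 and 0.50. The fit scales glands by TMM, under which the median gene did not move. On the plain per-million scale the median tested gene was itself 1.38-fold higher in double mutants, beside pooled folds of 6.43 for Meg3, 4.91 for Peg3, 2.47 for Cdkn1c and 1.92 for Grb10.

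Genes of the fibroblast marker list moved with genotype too, with all 6 tested markers called higher and a summed level of 39.0 to 307 CPM in control and 111 to 1170 CPM in double-mutant glands. The luminal Clu+ list (2 of 8 called higher) summed to 940 to 9506 CPM and 2875 to 34384 CPM. None of the markers of either list was at 0 in a genotype. Fewer cells of a type and less RNA of a gene per cell cannot be told apart in a whole gland, and the part that cell numbers play in the gland values was not tested.

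Between the stages the differences of H19, Igf2, Meg3, Cdkn1c and Grb10 were smaller than their SE, and that of Peg3 was larger. In double-mutant glands the log2 fold change from P40 to P90 was -0.60 ± 1.07 for H19, 0.12 ± 1.14 for Igf2, -0.07 ± 0.66 for Meg3, 0.24 ± 0.49 for Cdkn1c, -0.86 ± 0.54 for Peg3 and 0.11 ± 0.30 for Grb10. Dlk1 did not pass the filter (1.36 ± 0.75 without it, on 18 UMIs at P40 and 28 UMIs at P90). The share of all genes called in this comparison by edgeR was 0%, with 465 of 8614 genes at an unadjusted p under 0.05 and 1 gene called by DESeq2. Without P90 replicate 4 the value for H19 was -1.47 ± 1.14 and for Igf2 -0.81 ± 1.06, and without the pair of libraries whose sex transcripts go against their labels -0.66 ± 1.23 and -0.05 ± 1.27. Among control glands 8.18% of genes were called between stages, but no member passed the filter there. For controls, stage and batch cannot be told apart.

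To place the members in cell types, cells were clustered with all members and other imprinted genes held out, and clusters were named from marker lists with the ending -like. The 3 tumor-like populations, luminal Clu+-like cells (308 in double-mutant and 0 in control glands), basal tumor-like cells (323 and 1) and cancer stem cell (CSC)-like cells (303 and 1), came almost entirely from double mutants. Each level below is the pooled CPM of a gene over the cells of a type, with the exact Poisson 95% interval or the spread over glands with at least 10 such cells. These are descriptions, since types and members come from the same cells.

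H19 and Igf2 were highest in luminal Clu+-like cells, which express clusterin, keratins Krt8 and Krt18 and the WAP-domain gene Wfdc18. H19 was at 1633 CPM (1502 to 1772) there, followed by basal tumor-like cells at 253 CPM (193 to 325), fibroblast-like cells at 109 CPM, proliferating-like cells at 105 CPM and CSC-like cells at 64.1 CPM. The intervals from the fibroblast-like cells downward overlapped their neighbors. Proliferating-like cells were at 35.9 CPM of H19 without P40 replicate 6, which held 44 of their 60 UMIs. Fibroblast-like cells were at 92.5 CPM without P40 replicate 1, and CSC-like cells at 38.9 CPM without P40 replicate 7. Igf2 was at 2061 CPM (1914 to 2217) in luminal Clu+-like cells, then at 247 CPM in the cluster led by the small RNA gene Gm24245 and at 126 CPM in basal tumor-like cells. The order of this pair rested on P40 replicate 5, where 1 cell held 109 of the 177 UMIs of the former, which was at 112 CPM without that gland. In basal tumor-like cells Igf2 was at 68.0 CPM without P40 replicate 6. Over 9 glands with at least 10 luminal Clu+-like cells the mean was 1366 ± 1635 CPM (SD) for H19 and 1868 ± 1283 CPM for Igf2, so glands differed by about as much as the level itself. In P40 replicate 6 the 51 such cells reached 4495 CPM of H19 and 3901 CPM of Igf2, and in P90 replicate 2 the 24 such cells were at 59.3 and 296 CPM. Without P40 replicate 6 the pooled level of H19 was 775 CPM and that of Igf2 1510 CPM, still the highest of the named types.

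These cells held 67.4% of all H19 UMIs and 60.3% of all Igf2 UMIs of the double mutants but only 1.10% of all UMIs. By stage, pooled H19 was at 2827 CPM in 95 cells at P40 and 820 CPM in 213 cells at P90, and Igf2 at 2848 and 1525 CPM. The direction rested on P40 replicate 6, which held 363 of the 401 H19 UMIs at P40, and without it H19 was at 622 CPM and Igf2 at 1457 CPM at P40. The glands overlapped, with H19 from 197 to 4495 CPM over 3 glands at P40 and from 59.3 to 3669 CPM over 6 glands at P90. In acinar-like cells, the secretory cells of the gland, H19 was found in 0.289% and Igf2 in 0.707% of 3113 double-mutant cells at a median of 3620 UMIs per cell, against 15.3% and 19.5% of luminal Clu+-like cells at a median of 857 UMIs.

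Meg3 had a different source. It was highest in fibroblast-like cells, at 733 CPM (651 to 822) in double mutants and 476 CPM (360 to 619) in controls, and was detected in 35.6% of the 348 double-mutant and 42.4% of the 66 control cells. In double mutants this interval overlapped that of basal tumor-like cells. Without P90 replicate 6, Meg3 was at 612 CPM in the fibroblast-like cells. Over the 12 double-mutant glands with at least 10 fibroblast-like cells its mean was 931 ± 731 CPM, and the 2 such control glands were at 610 and 1373 CPM, so the genotypes overlapped in this type. Myoepithelial-like cells, the contractile cells around acini, were at 443 CPM (340 to 567.8) in double mutants and 84 CPM (53.3 to 126) in controls. Over glands with at least 10 of these cells the values ran from 147 to 854 CPM in 6 double-mutant glands and from 0 to 380 CPM in 7 controls. Basal tumor-like cells were at 589 CPM (496 to 695), and the 8 glands with at least 10 of them were all between 362 and 1051 CPM (mean 607.7 ± 258.0 SD), a narrower spread than that of H19 in luminal Clu+-like cells. Basal normal-like cells were at 102.7 CPM in double mutants, with 0 UMIs in 311 control cells. The cluster led by the mucin gene Muc19 was at 404 CPM and 242 CPM. Luminal Clu+-like cells, the main source of H19 and Igf2, held only 5 Meg3 UMIs (14.3 CPM).

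Dlk1, the partner of Meg3, was highest in basal tumor-like cells, with 22 of its 46 UMIs (92.6 CPM, 58.0 to 140), and had 0 UMIs in 348 fibroblast-like cells, which allows a share of up to 0.862% of them with a UMI. Cdkn1c was highest in basal tumor-like (168 CPM, 120 to 229) and CSC-like cells (106 CPM, 70.2 to 153), whose intervals overlapped, and in the latter it was at 68.1 CPM without P40 replicate 6. In controls it was highest in ductal progenitor-like cells, which express Ascl3 and Foxi1, at 55.3 CPM (38.3 to 77.3), beside 49.5 CPM (32.9 to 71.6) in double mutants. Peg3 was spread over fibroblast-like (187 CPM), basal tumor-like (177 CPM), basal normal-like (169 CPM), pericyte or smooth muscle-like (167 CPM) and myoepithelial-like cells (129 CPM), with overlapping intervals. In controls it was at 72.0 CPM (45.1 to 109) in basal normal-like cells and 51.0 CPM (18.7 to 111) in fibroblast-like cells. Grb10 was highest in fibroblast-like (60.6 CPM, 38.9 to 90.2) and endothelial-like cells (50.4 CPM, 36.5 to 67.9), with 76.6 CPM (35.0 to 145) and 35.2 CPM (21.5 to 54.4) in controls, and no Grb10 UMI was found in 303 CSC-like cells.

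**Figure D2:**
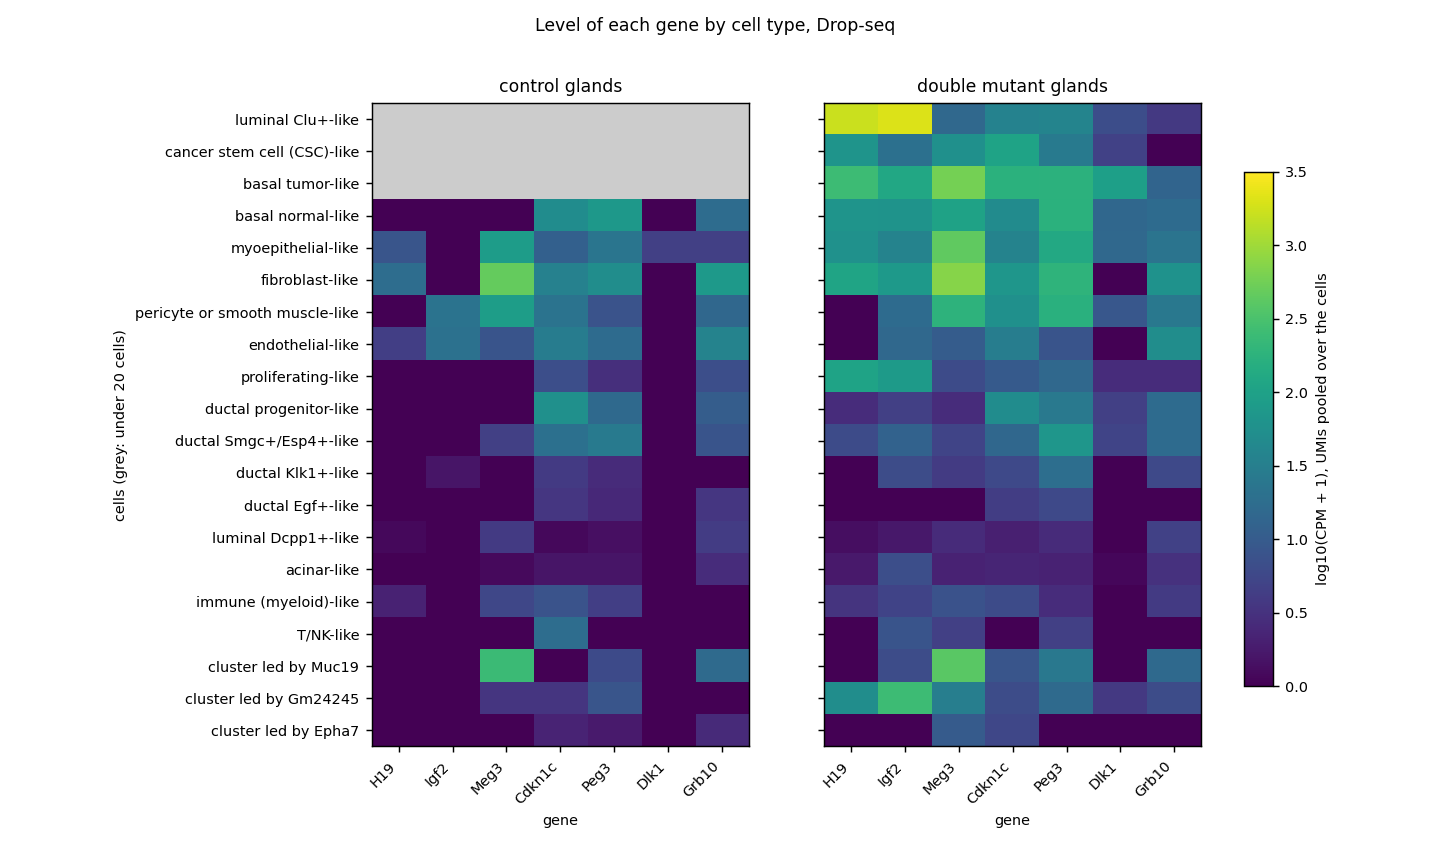
Pooled level of each gene (columns) in each cell population (rows) as log10(CPM + 1), for control glands and double-mutant glands, with populations of under 20 cells in grey. H19 and Igf2 were brightest in luminal Clu+-like cells (1633 and 2061 CPM), and Meg3 in fibroblast-like cells of both genotypes (476 and 733 CPM).

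Within a population, H19 and Igf2 were not spread evenly over the cells. In the double-mutant glands 123 cells held the 849 H19 UMIs, and 10 of these cells held 50.5% of them. For Igf2, 171 cells held 1197 UMIs, and the top 10 held 45.4%. By contrast, the 890 Meg3 UMIs lay in 491 cells and its top 10 cells held 8.99%. The top 10 cells held 11.3% of the UMIs of Peg3, 14.6% of Cdkn1c and 11.4% of Grb10. For Dlk1 the value was 52.2%, but of only 46 UMIs.

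There were 39 cells with at least 10 UMIs of H19 or Igf2, all of them among the 12603 cells of double-mutant glands and in 9 of the 14 glands. They held 77.3% of the H19 and 78.7% of the Igf2 UMIs of these glands. Of the 39, 25 were luminal Clu+-like, 3 basal-like, 3 proliferating-like, 3 of the cluster led by Gm24245, 2 acinar-like, 2 fibroblast-like and 1 ductal Smgc+/Esp4+-like, and their median depth was 1357 UMIs. High counts of the 2 genes often coincided, with 15 cells at 10 or more of both, 3 cells high in H19 without an Igf2 UMI and 5 cells high in Igf2 without an H19 UMI. Among the 308 luminal Clu+-like cells, 35 had both, 12 only H19, 25 only Igf2 and 236 neither, at median depths of 964 UMIs with both and 762 UMIs with neither. H19 and Meg3 were found together in 2 of these cells.

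**Figure D3:**
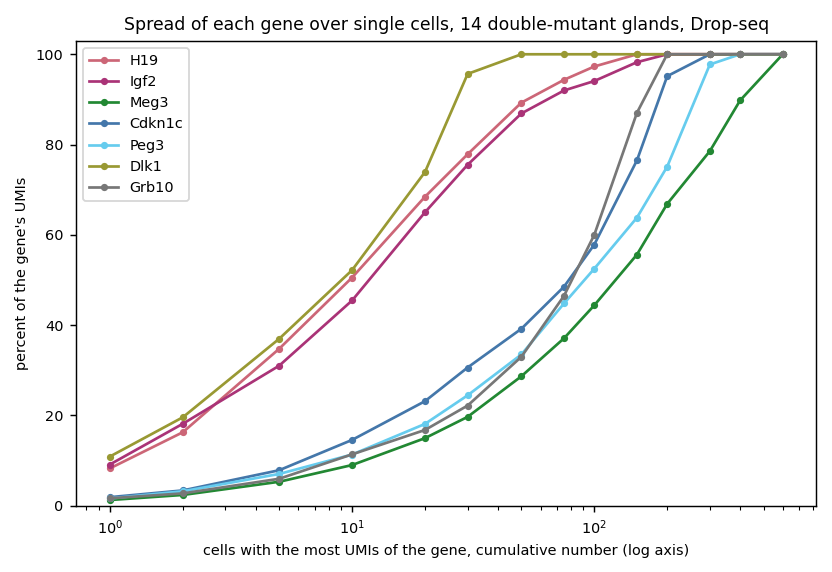
Cumulative percent of the UMIs of each gene in the 14 double-mutant Drop-seq glands (vertical axis) held by the cells with the most UMIs of that gene (horizontal axis, log scale). The H19 and Igf2 curves reach 50.5% and 45.4% with 10 cells, where Meg3 reaches 8.99%; the Dlk1 curve rests on 46 UMIs.

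In some glands a single cell held a large share of the UMIs. In P90 replicate 1, 1 luminal Clu+-like cell held 65 of the 84 H19 UMIs and 55 of the 122 Igf2 UMIs, and 1 acinar-like cell held another 55 Igf2 UMIs. In P90 replicate 4, 1 such cell held 108 of 244 Igf2 UMIs, and in P40 replicate 5, 1 cell of the cluster led by Gm24245 held 109 of 148. In P40 replicate 6, with 14 high cells, the top cell held 70 of 449 H19 UMIs. Some glands held most of their H19 in other types. P40 replicate 2 had 27 of its 62 H19 UMIs in 1 basal normal-like cell and 24 in its 79 basal tumor-like cells, P40 replicate 1 had 12 of 21 in fibroblast-like cells, and P40 replicate 7 had 8 of 16 in fibroblast-like and 7 in CSC-like cells.

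**Figure D4:**
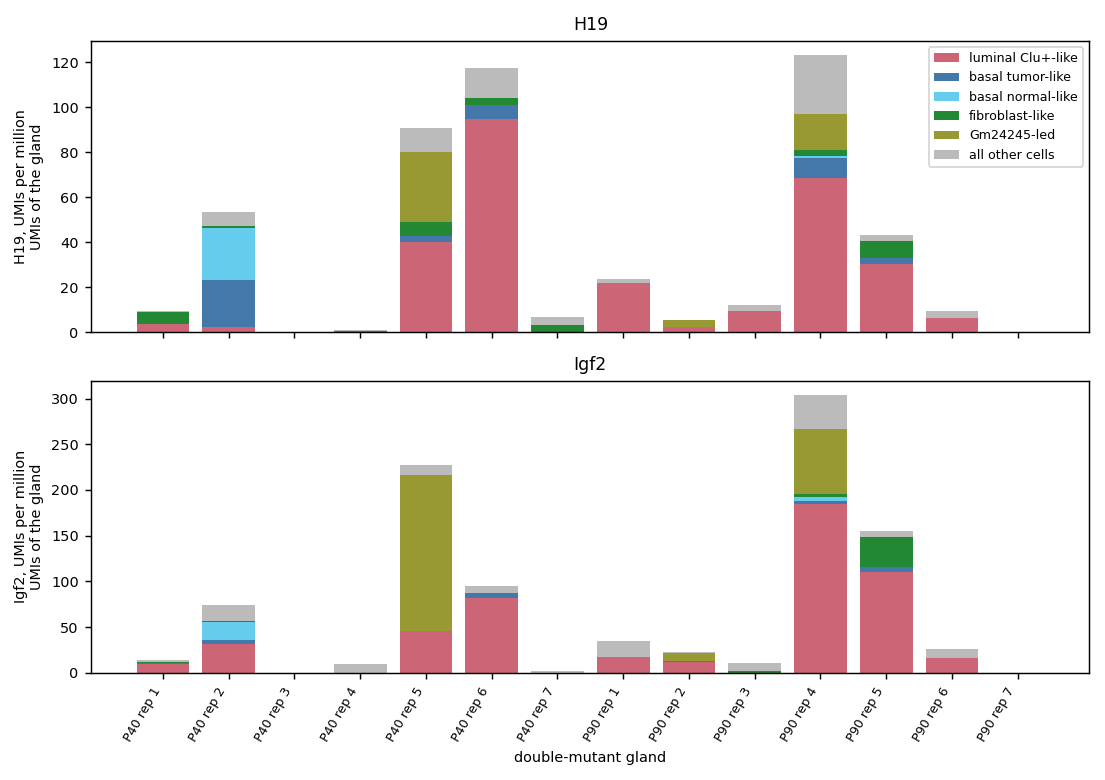
H19 and Igf2 per gland (vertical axis, CPM over all UMIs of the gland) in the 14 double-mutant Drop-seq glands, with each bar divided by the population that held the UMIs. Luminal Clu+-like cells made up most of the H19 bar in P40 replicate 6 (363 of 449 UMIs) and P90 replicate 1 (78 of 84 UMIs), and the cluster led by Gm24245 most of the Igf2 bar in P40 replicate 5.

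The CITE-seq glands, from other animals than those the members were selected on, were used to test the genotype difference. Here 13.7% of 10058 genes were called in either direction and 9.24% higher in double mutants, and the median tested gene was 1.62-fold higher in CPM. Meg3 had 101 and 61 UMIs in the 2 double mutants (91.7 and 91.0 CPM) and 7 and 12 UMIs in the controls (4.0 and 5.44 CPM). It rose by a log2 fold change of 3.53 ± 0.35 (edgeR adjusted p = 0.00172) and was higher in 2 of 2 double mutants, with adjusted p from 3.89e-14 to 0.0152 over the alternatives. H19 had 14 and 118 UMIs in double mutants (12.7 and 176 CPM) and none in either control. It was at least 98.2-fold higher, taking the 3 counts that a count of 0 allows over both controls. Without double-mutant replicate 2, which held 118 of the 132 UMIs, the bound was 16.7-fold, and a single cell of that gland held 84 UMIs. No p is given for H19, since it passed the filter only through the double mutants. Meg3 too reached the level of the filter in the double mutants alone, so its adjusted p after the filter carries the same limit. It was also called in the fit without the filter, over 23645 genes and the same 2 glands per genotype (edgeR adjusted p = 3.89e-14).

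Cdkn1c had 15 and 10 UMIs in double mutants and 5 and 10 UMIs in controls, with a log2 fold change of 1.19 ± 0.46 that did not pass (adjusted p = 0.12). It too reached the level of the filter in the double mutants alone. Grb10 had 18 and 4 UMIs against 16 and 13 UMIs and did not pass (SE of the log2 fold change 0.91, adjusted p = 0.9997). Igf2 (4 and 40 UMIs against 4 and 0), Peg3 (5 and 11 against 3 and 2) and Dlk1 (0 and 0 against 1 and 0) had too few counts to be tested. The filter was passed by 4 of the 7 members. The double mutants here were both female and the controls 1 male and 1 female, and with sex as a covariate Meg3 was called too (adjusted p = 0.000145). The fibroblast marker list rose in the same glands, with 7 of 8 markers called and a summed level of 624 to 669 CPM in controls and 3279 to 3768 CPM in double mutants, and its part in the Meg3 difference was not tested.

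By cell type, 155 of the 162 Meg3 UMIs of the CITE-seq double mutants were in 100 fibroblast-like cells (1171 CPM, 994 to 1370, in 58.0% of the cells), and all 19 control UMIs in 49 fibroblast-like cells (437 CPM, 263 to 682). When types were carried over from the nearest Drop-seq cells, 111 of 132 H19 UMIs and 41 of 44 Igf2 UMIs lay in 38 luminal Clu+-like cells, in 4 cells for each gene. Clustered alone, the same UMIs fell in a cluster led by Ltf (117 double-mutant cells). A single cell held 84 of these 111 H19 UMIs, and a single cell held 37 of these 41 Igf2 UMIs, so this placement rests on very few cells. Cdkn1c was found in fibroblast-like cells (14 of 25 UMIs in double mutants and 7 of 15 in controls).

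No member passed the test between the sexes. In the fit over the 26 Drop-seq glands with genotype and stage as covariates, 0.354% of genes were called by edgeR. The log2 fold change (male minus female) was -0.98 ± 0.43 for Peg3 (adjusted p = 0.6), -0.56 ± 0.36 for Cdkn1c (adjusted p = 0.775), -0.39 ± 0.29 for Grb10 (adjusted p = 0.838) and 0.26 ± 0.46 for Meg3 (adjusted p = 0.966). Without the 2 libraries whose sex transcripts go against their labels these were -1.08 ± 0.47, -0.62 ± 0.39, -0.36 ± 0.31 and 0.47 ± 0.50, none called. H19, Igf2 and Dlk1 did not pass the filter, and without it none was called (adjusted p = 0.253, 0.656 and 0.861).

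The other imprinted genes were called in both directions. Of 53 found in the tables, 20 were tested in the Drop-seq genotype fit, where 2 were higher and 3 lower in double mutants (21.6% of all genes called), and their median log2 fold change was -0.11 beside 0.01 for all genes. Kcnq1ot1, the antisense RNA of the Cdkn1c domain (0.88 ± 0.28, adjusted p = 0.0287), and Impact (0.77 ± 0.28, adjusted p = 0.0486) rose. The transporter gene Slc22a3 (-0.91 ± 0.26, adjusted p = 0.017), Gnas, which encodes a G protein subunit (-0.58 ± 0.17, adjusted p = 0.016), and Commd1 (-0.36 ± 0.13, adjusted p = 0.0416) fell. None of the 20 was called with batch as a factor, and without the pair of libraries with discordant sex transcripts 0 rose and 2 fell. In CITE-seq, 1 of 18 rose and 1 fell. Mest, a gene of fetal mesoderm, had 26 UMIs in double mutants (13.6 and 16.4 CPM) and none in controls, so that it too passed the filter only through the double mutants, and its call was lost without control replicate 2. Slc22a3 fell by 2.24 ± 0.56 on the log2 scale (adjusted p = 0.0373), but was called neither by DESeq2 (adjusted p = 0.222) nor without either double mutant.

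Of the IGF axis, the ligands, receptors and binding proteins around Igf2, 6 of 11 tested genes rose in the Drop-seq genotype fit and none fell, with a median log2 fold change of 1.47, where 14% of all genes were called higher. The other ligand, Igf1, went from 0 to 5.59 CPM (median 1.02) in controls and from 3.84 to 52.9 CPM (median 12.1) in double mutants (2.36 ± 0.43, adjusted p = 0.000805). The secreted binding proteins Igfbp5 (2.39 ± 0.48), Igfbp4 (2.34 ± 0.47), Igfbp7 (2.15 ± 0.45) and Igfbp3 (2.11 ± 0.46) rose with adjusted p from 0.00178 to 0.00326, and the receptor Igf1r by 0.76 ± 0.24 (adjusted p = 0.0263). With batch as a factor 4 of the 11 were called, when the count over all genes fell from 1894 to 201. In CITE-seq, where 9.24% of all genes were called higher, 4 of 12 rose, Igf1 (3.40 ± 0.34), Igfbp4 (3.05 ± 0.28), Igfbp7 (2.24 ± 0.51) and Igfbp5 (2.20 ± 0.45), with adjusted p from 0.00123 to 0.0275. Igf1 was low in the controls there, at 5.15 and 6.80 CPM, against 93.5 and 119 CPM in double mutants. It therefore passed the filter only through the double mutants, which limits its adjusted p.

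Among inhibitors of cyclin-dependent kinases, Cdkn1a, a target of p53, rose in both assays (1.04 ± 0.31, adjusted p = 0.0217 in Drop-seq, and 1.36 ± 0.30, adjusted p = 0.0267 in CITE-seq). It was 1 of 3 tested that rose in Drop-seq, where 14% of all genes were called higher. In CITE-seq 2 of 6 rose, where 9.24% of all genes were called higher, the other being Cdkn2a (2.46 ± 0.51, adjusted p = 0.022), on 25 UMIs against 6. In controls Cdkn2a was at 1.36 and 1.72 CPM, so it passed the filter only through the double mutants (13.6 and 14.9 CPM). Of the Notch pathway, to which Dlk1 is related, 3 of 5 tested genes rose in Drop-seq (14% of all genes), the ligand Jag1 (1.19 ± 0.28), Notch1 (0.91 ± 0.26) and Notch2 (0.89 ± 0.25), with adjusted p from 0.00538 to 0.0161, but none with batch as a factor and none of 5 in CITE-seq. Of a list on imprint maintenance, which also holds genes that set or remove DNA methylation, 3 of 7 rose in Drop-seq (14% of all genes). They were the demethylase Tet3 (0.77 ± 0.22), the corepressor Trim28 (0.66 ± 0.22) and the methyltransferase Dnmt3a (0.51 ± 0.16). None rose with batch as a factor, and none of 6 in CITE-seq. No gene of these lists was called between the sexes or between stages of the double mutants, and in control glands Hes1 alone rose from P40 to P90 (0.96 ± 0.24, adjusted p = 0.0183).

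In whole-gland bulk RNA the members divided differently. H19 had 48 reads in the control and 224 reads in the double-mutant library (1.39 and 6.45 CPM of the reads in genes), 4.64-fold higher (3.38 to 6.47, exact interval for counting error), and Igf2 48 and 216 reads, 4.47-fold higher (3.26 to 6.25). Meg3 was lower in the double mutant, with 193 and 100 reads (0.515-fold, 0.400 to 0.659), and Peg3 lower still, with 210 and 58 reads (0.274-fold, 0.202 to 0.369), although both were higher in double-mutant glands by Drop-seq. Cdkn1c (48 and 55 reads) and Grb10 (383 and 348 reads) differed by an amount within the counting error, and Dlk1 had 6 and 5 reads. With 1 library of each genotype and different ages (P70 and P100) there is no test, and age and genotype cannot be told apart. Of all 14552 genes with at least 10 reads, 5.98% were at least 2-fold higher and 10.6% at least 2-fold lower, with a median fold of 0.805. Reads were counted without regard to strand, so antisense transcripts at Igf2 and Peg3 are included.

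The bulk libraries also differed from the single-cell glands in their markers. The fibroblast markers summed to 373 CPM in the control and 332 in the double-mutant library, the myoepithelial markers to 187 and 81.3, the luminal Clu+ markers to 438 and 1130 and the CSC markers to 13.6 and 81.1. The part of these in the member values was not tested. Per transcript length, the members ranged in the control from Grb10 at 1.07 TPM through Cdkn1c (0.632), H19 (0.514), Peg3 (0.401), Meg3 (0.271) and Igf2 (0.213) to Dlk1 (0.0270). In the double mutant H19 was first at 2.42 TPM, followed by Grb10 (0.982) and Igf2 (0.968).

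**Figure D5:**
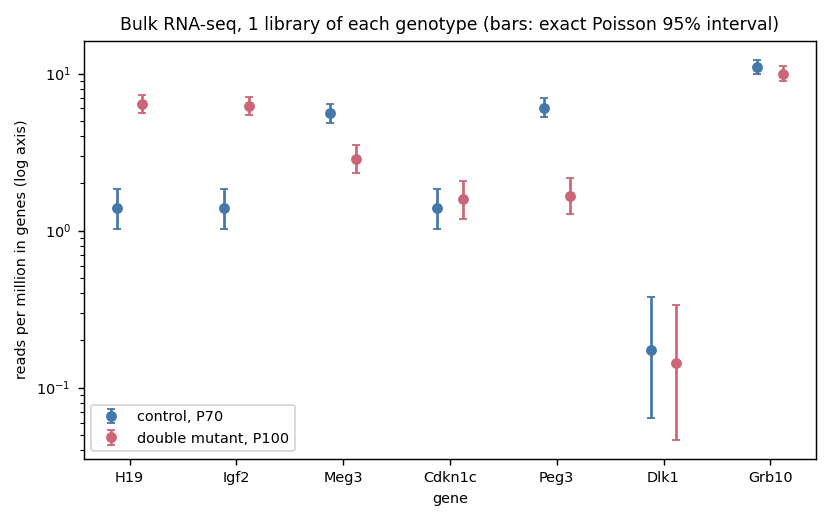
CPM over the reads in genes (vertical axis, log scale) of each member in the control (P70) and the double-mutant (P100) bulk library, with exact Poisson 95% intervals for counting error. H19 and Igf2 were higher and Meg3 and Peg3 lower in the double mutant, with intervals apart.

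Genes whose pooled levels over 17 named Drop-seq populations were most like those of a member were found by Pearson correlation of log2(CPM + 10). The closest were Sbsn (r = 0.877), Reg3g (0.858) and Col9a3 (0.843) for H19, Reg3g (0.905), Sbsn (0.874) and Ltf (0.849) for Igf2, Steap4 (0.981), Htra1 (0.970) and Lhfp (0.956) for Meg3, Gm7676 (0.944), Map4k5 (0.939) and Fam92a (0.936) for Cdkn1c, Rhobtb3 (0.943), Smo (0.937) and Rhbdf1 (0.927) for Peg3, and Nid1 (0.893), Tmem204 (0.891) and Lama4 (0.881) for Grb10. The 17 points share libraries and differ in depth, and for H19 and Igf2 they rest on the luminal Clu+-like cells. Dlk1 had too few UMIs for this comparison.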

How the data were processed

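Drop-seq and CITE-seq UMI counts per gene and cell, and bulk read counts per gene, were used as deposited by the authors. The study aligned reads to mm10 with STAR. Bulk reads were counted with featureCounts 1.6.0, per the file headers, by gene name over exons and without a strand option. Cells with at least 100 genes and under 15% mitochondrial UMIs were kept (CITE-seq cells also under 2500 genes). No doublet caller was run.

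UMIs were summed per gland and tested with edgeR 4.0.16 in R 4.3.3 (quasi-likelihood test, TMM, filterByExpr, Benjamini-Hochberg adjustment over all genes tested, threshold 0.05). The covariates were sex and stage (genotype), genotype and stage (sex), sex (stage) and none (CITE-seq). SE is the log2 fold change divided by the square root of F. DESeq2 1.42.0, other scaling, no filter, all barcodes, batch, the replicate number and left-out libraries were alternatives. The tests were checked on simulated counts. In the CITE-seq design 57.8% of 4-fold and 1.12% of 2-fold changes were recovered, and 8.62% of the calls were false. For sex these shares were 97.6%, 79.8% and 5.95%, and for the Drop-seq genotype 100%, 75.3% and 3.23%. Replicates were labelled as separate mice.

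Cells were clustered with scanpy 1.11.5 (10000 UMIs per cell, 2000 variable genes without imprinted genes, 30 components, 20 neighbors, Leiden resolution 1.0). A cluster was named where at least 3 of the type's markers led it, and otherwise after its leading gene. Levels (CPM) are per-million shares of all UMIs of the same cells or gland. Exact Poisson and binomial 95% intervals and the limit of 3 counts cover counting error only.

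All members are given in every comparison. Of the other lists, the called genes are named, at most 8 for each list and comparison, and for likeness the 3 genes with the highest r. The members and lists were chosen with earlier results of these data known.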

Additional observations from a re-analysis of the deposited data

Results flagged for a closer look

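Dixon's criterion was applied to each member in each Drop-seq group of a genotype and age. In 8 of 26 such combinations, 1 gland stood apart from the others of its group. The criterion's rate of about 1 in 20 is for normally distributed values. It does not hold for counts near 0, so the number flagged is not set against it. No cause was tested for any of them. Of the double mutants at P90, replicate 4 was apart in H19 at 123.4 CPM (99 UMIs, other glands 0 to 43.4 CPM) and in Dlk1 at 19.944 CPM (16 UMIs, others 0 to 7.97 CPM). The H19 UMIs of this gland lay in several cells, the highest with 16, as did its Dlk1 UMIs, the highest with 4. Of the double mutants at P40, replicate 5 was apart in Igf2 at 227.59 CPM (148 UMIs, others 0.154 to 94.5 CPM), of which 109 UMIs were in 1 cell, and in Grb10 at 16.915 CPM (11 UMIs, others 2.92 to 8.63 CPM). Replicate 2 of that group was apart in Cdkn1c at 33.643 CPM (39 UMIs, others 2.15 to 11.8 CPM).

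Among control glands at P40, replicate 1 was apart in Peg3 at 14.628 CPM (34 UMIs, others 0.158 to 4.10 CPM) and in H19 at 1.7209 CPM (4 UMIs, others 0 to 0.600 CPM). Control replicate 1 at P90 held the 1 Dlk1 UMI of the control glands (0.42675 CPM), and a lone UMI in a group always meets the criterion.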

How the results depend on the processing

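The members' log2 fold changes kept their direction under the alternatives, except where they were small beside their error (Grb10 in CITE-seq went from -1.09 to 0.50 when 1 library was left out, and stage values of Igf2, Meg3 and Cdkn1c in double mutants changed sign). The counts of called genes moved more. In CITE-seq 1379 genes were called, against 2356 without the filter, 644 by DESeq2, 495 with all barcodes, 2191 with sex as a covariate and 380 to 1050 with 1 library left out (506 and 380 without double-mutant replicates 1 and 2, 406 without control replicate 2). Without the cluster led by Irs4, chosen after seeing the data, it was 1716, with 60.1% higher instead of 67.4%. For sex the count of 31 became 269 without the filter (41.3% higher instead of 90.3%), 57 by DESeq2, 52 without the 2 libraries with discordant sex transcripts, 4 with batch and 11 without the 2 tumor-poor double mutants, a choice made after seeing the data. For genotype 1894 became 2917 without the filter, 1207 without the discordant pair, 201 with batch (91.0% higher instead of 64.6%) and 3011 without the tumor-poor pair (53.8% higher). For stage in double mutants 0 became 232 without the filter and 1 by DESeq2, and in controls 649 became 2235 without the filter. Cdkn1c between stages of the double mutants went from 0.24 to -0.87 with batch. Numbered replicates did not deviate together (r of 0.0361 in CITE-seq, 13 of 37 pairs over 0.1 for genotype, 3 of 7 for stage in double mutants, 4 of 6 in controls). With the replicate block 1863 genes were called in CITE-seq, 24 for sex, 2903 for genotype (53.1% higher) and 556 for stage in controls, and Meg3 was called in CITE-seq as before. At resolution 0.7, 303 of the 308 luminal Clu+-like cells joined the ductal Smgc+/Esp4+-like cells, so no level of their own could be given; H19 was at 405 and Igf2 at 520 CPM in that cluster. The other cell type levels stayed within the spread (SD) over glands, also without the gland that held most UMIs of the gene, an alternative chosen after seeing the data. This is a weak criterion where the spread is as large as the level, since no fall could then exceed it. That was so for H19 in luminal Clu+-like cells, which went from 1633 to 775 CPM without that gland. It also held for Igf2 in the cluster led by Gm24245, which went from 247 to 112 CPM. The causes of these differences were not tested. Low counts limit H19, Igf2 and Dlk1 in controls and Dlk1 throughout.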

Other observations

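Within the luminal Clu+-like cells of the double mutants, the 25 cells with at least 10 UMIs of H19 or Igf2 differed in other genes from the other 283, which had a median of 784 UMIs against 1459 UMIs. The genes below were chosen after their values were seen, and no test was made. Clu was 2.59-fold higher (CPM) in the high cells and higher in 7 of 8 glands that held both kinds, Gata2 2.97-fold (6 of 8), Rgs5 3.68-fold (5 of 8) and Sgk1 2.75-fold (6 of 8). Car6 was at 0.171-fold, Scgb2b26 at 0.210-fold and Lcn2 at 0.259-fold, each higher in 0 of 8 glands. Clu and Lcn2 belong to the luminal Clu+ marker list, whose other genes went both ways. Elf3 was at 2.39-fold (higher in 5 of 8 glands), Wfdc18 at 1.46-fold (4 of 8) and Krt8 at 1.14-fold (1 of 8). Cldn4 was at 0.931-fold (2 of 8), Krt18 at 0.742-fold (1 of 8) and Wfdc2 at 0.578-fold (2 of 8). P40 replicate 6 held 14 of the 39 high cells of all types, most of them luminal Clu+-like. The same gland held 51 of the 308 luminal Clu+-like cells, so the pooled folds lean on it. Some of the 8 glands held very few high cells.

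In basal tumor-like cells, Meg3 and Dlk1 were found together in 9 of the 14 cells with a Dlk1 UMI, at a median depth of 1172 UMIs against 525 UMIs of cells with neither. In CITE-seq, Igf2 of control glands lay in endothelial-like cells (3 of 4 UMIs in 41 cells), and in Drop-seq controls Igf2 was at 19.4 CPM in the same type (11 UMIs).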
